A study of Mus musculus with 38 samples.

Results

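The Nanog and Dppa3 locus is a stretch of mouse chromosome 6 that holds 5 protein-coding genes, Apobec1, Gdf3, Dppa3, Nanog and Slc2a3. The genes were selected on measured values of these same data, from 21938 protein-coding genes of GENCODE M21, so the differences between genotypes over them are given as descriptions, and no call of a test on them is read as support. Each gene was taken with 5000 bp on either side, together with the sequence between these windows, which gave 233849 bp from 122572792 to 122806640 of GRCm38 (chr6:122572792-122806640). Mouse embryonic stem cells (mESCs) of the line ES-E14TG2a, grown in serum with leukemia inhibitory factor (LIF) and taken at 0 h, that is before differentiation, were profiled by ChIP-seq, which measures where modified histones sit on DNA. IκBα, encoded by Nfkbia, holds NF-κB in the cytoplasm, and it was removed with CRISPR-Cas9 and guide RNAs to the first exon of Nfkbia (IκBα-KO, here KO), while clones given guides without a target served as wild type (IκBα-WT, here WT). For each of 5 histone modifications there were 3 WT and 3 KO libraries, the study's biological replicates, which gave 30 ChIP libraries, and 8 input libraries brought the samples to 38. The study made its KO and WT cells as independent single-cell clones, and the labels do not say which clone gave which library.

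Nanog encodes a homeodomain transcription factor that holds ES cells in the naive pluripotent state. Dppa3 (Stella) encodes a maternal and germline factor that protects DNA methylation patterns in the early embryo and is switched on in a fluctuating share of ES cells. Gdf3 encodes a ligand of the TGF-β family found in pluripotent cells, Slc2a3 the glucose transporter GLUT3, and Apobec1 a cytidine deaminase that edits mRNA. H3K4me3 marks active promoters, H3K4me1 and H3K27ac mark enhancers and active chromatin, H3K27me3 is set by Polycomb repressive complex 2 (PRC2), and H3K9me3 is found in heterochromatin. In a bulk ChIP, fewer cells that carry a mark and less of the mark per cell cannot be told apart.

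From low to high coordinates, Apobec1 (ENSMUSG00000040613, minus strand) runs from 122577792 to 122602444, Gdf3 (ENSMUSG00000030117, minus) from 122605403 to 122610087, Dppa3 (ENSMUSG00000046323, plus) from 122626410 to 122630272, Nanog (ENSMUSG00000012396, plus) from 122707489 to 122714633 and Slc2a3 (ENSMUSG00000003153, minus) from 122727809 to 122801640. The windows of Apobec1 and Gdf3 overlap, and the widest sequence between windows is the 67216 bp that separate Dppa3 from Nanog. The annotation places 4 further genes in the locus, of which 3 are processed pseudogenes.

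Sequences are shown for the Nanog promoter and for stretches at Nanog where the genotypes were told apart by calls. They are as given by RefSeq for GRCm38.p6 on the plus strand, 5′ to 3′. The printed promoter bases were not restricted to 1 genotype by calls. The promoter table held Nanog, with 2 starts, and Apobec1, with 1 start. The first line is the Nanog promoter (chr6:122707239-122707488), the 250 bases before the start, with a POU motif followed by a SOX motif in capitals. The second is the centre of a stretch upstream of Nanog (chr6:122706686-122706985) that H3K4me3 peaks reached in the KO libraries alone, and the third is the centre of an intronic stretch of Nanog (chr6:122708251-122708550) that H3K4me1 calls reached in the WT libraries alone. In these, capitals mark CG dinucleotides.
Nanog promoter: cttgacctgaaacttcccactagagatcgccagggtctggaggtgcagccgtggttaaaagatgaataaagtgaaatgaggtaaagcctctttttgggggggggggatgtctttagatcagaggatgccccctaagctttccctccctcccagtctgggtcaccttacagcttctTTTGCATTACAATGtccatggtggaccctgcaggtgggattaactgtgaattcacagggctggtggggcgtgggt
Upstream of Nanog, H3K4me3 in KO: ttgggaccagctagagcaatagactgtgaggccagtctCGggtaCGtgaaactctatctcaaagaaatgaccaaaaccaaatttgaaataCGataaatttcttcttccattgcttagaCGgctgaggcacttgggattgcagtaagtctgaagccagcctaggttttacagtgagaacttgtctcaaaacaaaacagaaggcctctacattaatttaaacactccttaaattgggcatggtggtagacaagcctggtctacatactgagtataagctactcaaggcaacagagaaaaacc
Nanog intron, H3K4me1 in WT: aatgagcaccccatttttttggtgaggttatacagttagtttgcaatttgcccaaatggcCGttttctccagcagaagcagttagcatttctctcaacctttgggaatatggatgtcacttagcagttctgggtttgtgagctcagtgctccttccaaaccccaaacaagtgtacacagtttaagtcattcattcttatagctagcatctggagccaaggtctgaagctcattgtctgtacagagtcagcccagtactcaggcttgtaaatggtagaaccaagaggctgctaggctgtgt
All motifs were sought in the 250 bases before the start of each promoter entry. The run TTTGCATTACAATG lies at −75 to −62 from the Nanog start. It occurs in 2 of 32851 promoters (0.00609%), which are the 2 entries of Nanog itself. The run was read from the Nanog promoter, with its own base between the motifs, so a low count was set in advance. This count does not measure how rare such pairs of motifs are. On its own, TTTGCAT occurs on either strand in 4.12% of these promoters and ACAATG in 10.7%, and each of the 2 motifs had 1 match in Nanog. Neither Nanog promoter entry held TATAAA (12.4% of promoters), GGGCGG (32.7%) or the κB motif (7.25%) in these bases, on either strand. The motifs do not overlap one another in Nanog. The upstream stretch held 4 CG dinucleotides in 300 bases, against a median of 7 in full promoter entries of 300 bases. RefSeq soft-masks 128 of the 300 printed bases of the upstream stretch as repeats. The 300 printed bases of the intronic stretch held 1. The whole intronic stretch of 800 bp held 17 and the whole upstream stretch of 583 bp held 11. These are matches of letters and not evidence that a factor binds.

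H3K4me3 over the locus lay mainly around 4 starts, those of Gdf3, Nanog and Slc2a3 and that of the short Slc2a3 transcripts, and at a site in an intron of Slc2a3, and Dppa3 had almost none. The share of the window under H3K4me3 peaks was higher in the KO at Nanog, Gdf3 and Slc2a3. H3K27ac and H3K4me1 covered most of the locus in both genotypes, H3K27me3 was limited to Dppa3 and to the outer edges of the locus, and H3K9me3 was sparse. The map of calls along the locus shows this layout.

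**Figure D1:**
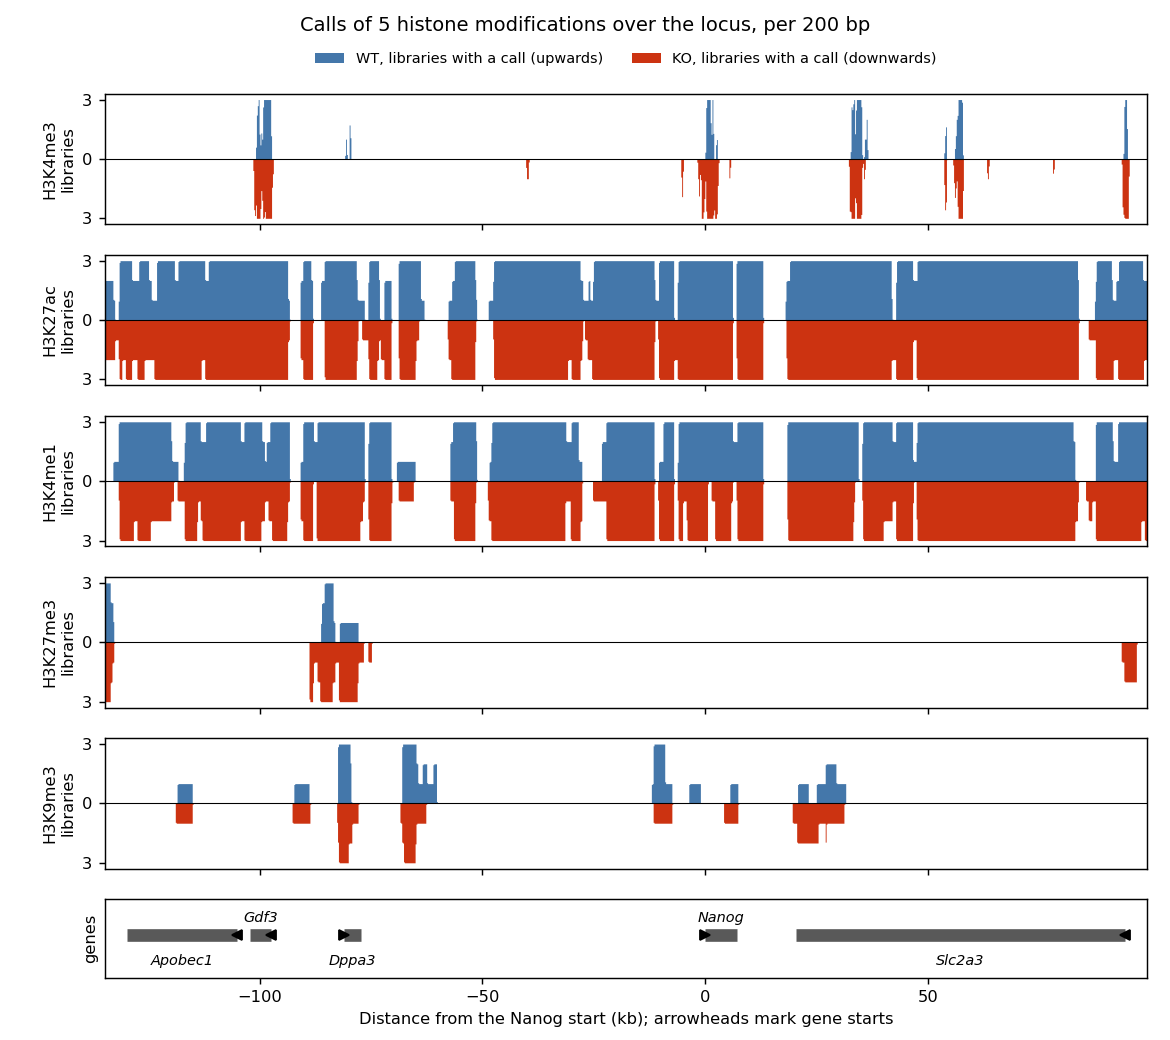
Number of libraries with a call (vertical axis, 0 to 3 for WT upwards and KO downwards) along the locus by distance from the Nanog start in kb (horizontal axis), with 1 panel per histone modification and the genes drawn as bars. H3K27ac and H3K4me1 cover most of the locus in both genotypes, and H3K27me3 lies near Dppa3 and at the outer edges.

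H3K4me3 peaks covered 8.5%, 10.8% and 8.7% of the Nanog window in the 3 WT libraries and 18.4%, 26.2% and 22.5% in the 3 KO libraries. The means were 9.33 ± 1.25% (SD, n = 3) in WT and 22.4 ± 3.88% (SD, n = 3) in KO, and the groups did not overlap. Nanog gained the most coverage of the 5 genes. Over the whole genome H3K4me3 covered 17.2 to 19.3 Mb in WT and 19.0 to 22.1 Mb in KO, so the KO lists were also longer in general, and the part of this in the values at Nanog was not tested.

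The strongest H3K4me3 peak near the Nanog start was 1136, 1097 and 1120 bp wide in WT and 2565, 1741 and 2620 bp wide in KO. This gave 1118 ± 19.6 bp (SD, n = 3) and 2309 ± 492 bp (SD, n = 3), with no overlap. The fold enrichment of the same peak over its input was 6.32 ± 1.36 in WT and 12.1 ± 3.72 in KO (SD, n = 3 each), with the lowest KO library at 7.96 and the highest WT library at 7.88. The groups were therefore apart by a margin far smaller than the spread within either of them. In the KO libraries this peak ended further into the gene, at 1868 to 2770 bases after the start, against 1131 to 1284 in WT. All 3 WT libraries had a separate, weaker peak beyond it, ending 1715 to 1825 bases after the start. WT replicate 2 had another that ended at 2698, and KO replicate 2 another that ended at 2940. Part of the added width in KO therefore lay over sequence that WT libraries called as separate peaks.

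Upstream of Nanog, in the promoter taken from 5000 bp before to 100 bp after the start, peaks covered 0, 66 and 0 bp in WT and 601, 1516 and 1240 bp in KO. All 3 KO libraries had a separate peak just upstream of the start, which no WT library had. A further peak near the upstream end of the Nanog window, about 5 kb before the start, was called in KO replicates 2 and 3, and one that began at −40183 bp from the start, in the distal sequence between Dppa3 and Nanog, in KO replicate 2 alone.

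At Gdf3, H3K4me3 covered 20.5%, 15.8% and 19.0% of the window in WT and 26.2%, 28.4% and 24.8% in KO. The groups did not overlap, but the width of the strongest peak at the start did, at 1942 ± 183 bp in WT and 2701 ± 1334 bp in KO (SD, n = 3 each). KO replicate 2 held the widest peak, 4170 bp, and KO replicate 3 the narrowest of all 6, 1565 bp. The Apobec1 window had 1.77 ± 0.399% in WT and 3.49 ± 0.510% in KO (SD, n = 3 each). All of this lay in the sequence shared with the Gdf3 window, so that no H3K4me3 peak was found over the body of Apobec1 itself.

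Slc2a3 has an upstream start, used by a long transcript, and starts of the shorter transcripts near 122742745. H3K4me3 covered 5.4%, 5.6% and 6.2% of the Slc2a3 window in WT and 7.5%, 7.4% and 8.4% in KO, again without overlap. The peak at the upstream start widened, from 698 ± 30.1 to 1283 ± 254 bp (SD, n = 3 each), and its fold enrichment was 8.12 ± 1.12 in WT and 12.6 ± 1.25 in KO. The peak at the start of the shorter transcripts went the other way, with a fold enrichment of 15.1 ± 1.87 in WT and 10.3 ± 0.345 in KO (SD, n = 3 each) and no overlap. Its width overlapped between the genotypes.

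Dppa3 was the exception. Peaks covered 4.1% and 1.9% of its window in WT replicates 1 and 2 and were not called in WT replicate 3 or in any KO library. They were weak, with a fold enrichment of 5.52 for the strongest one in WT replicate 1 and 2.82 in WT replicate 2, and all lay inside the gene and not before its start. The groups overlapped at 0.

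Of the 5 windows, 4 had all KO libraries above all WT libraries for H3K4me3, and none had all KO below. The peaks of the Apobec1 window lie in the sequence shared with the Gdf3 window, so they count in both. Among the 15151 gene windows with a peak in any library, 24.5% had KO above and 7.25% KO below. Since the members were selected on this contrast, nothing is read from the comparison. In bases, 12.7% of the 19576 locus bases under a peak in any library were called in all 3 KO and in no WT library, against 3.36% of such bases over the genome, and 35.5% were called in all 6. These KO-restricted bases formed 12 stretches and 2493 bp, and no base of the locus was restricted to WT.

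The longest of these stretches was the one upstream of Nanog whose centre is printed above (chr6:122706544-122707126, 583 bp), at −945 to −363 from the start and between genes. H3K27ac and H3K4me1 calls covered it in full in all 6 libraries of each. The next lay in an intron of Nanog (chr6:122709476-122709847, 372 bp). Others were found over Gdf3, in its last part (301 bp, exonic) and across its start (152 bp), and on both sides of the upstream Slc2a3 peak (288 and 266 bp).

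**Figure D2:**
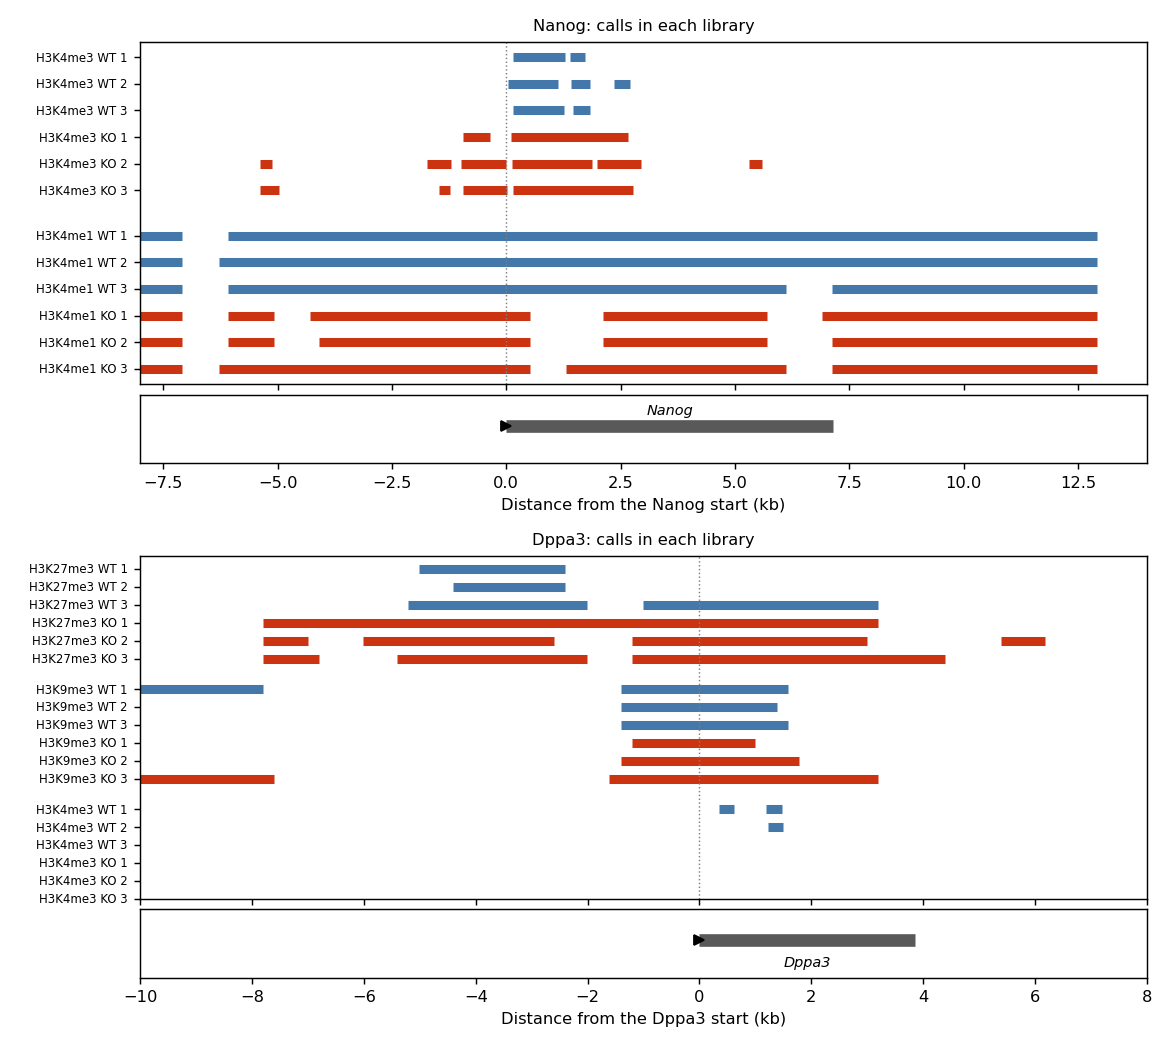
Calls in each library around Nanog (H3K4me3 and H3K4me1, upper panel) and Dppa3 (H3K27me3, H3K9me3 and H3K4me3, lower panel), blue for WT and red for KO, by distance from the start of the gene in kb. All 3 KO libraries have an H3K4me3 call upstream of the Nanog start and a gap in H3K4me1 after it, and H3K27me3 calls reach the Dppa3 start in WT replicate 3 and in all 3 KO libraries.

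H3K4me1 went in the other direction at Nanog. Calls covered 100%, 100% and 94.2% of the window in WT and 79.5%, 77.2% and 89.5% in KO, or 98.1 ± 3.37% and 82.1 ± 6.54% (SD, n = 3 each), with no overlap. The calls opened a gap just inside the gene. The bases that every WT library and no KO library called were 3 stretches of 1800 bp in all, and the one in an intron of Nanog (chr6:122708001-122708800, 800 bp) lies 512 to 1311 bases after the start. Over the same 800 bp, H3K4me3 peaks covered 96.6%, 77.5% and 93.3% in the WT libraries and 100% in each KO library, so the gap in H3K4me1 lay under H3K4me3.

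The second such stretch lay in an intron of Slc2a3 next to the start of the shorter transcripts (chr6:122741001-122741800, 800 bp). There H3K4me3 covered 83.4%, 74.4% and 85.8% in WT and 82.9%, 71.5% and 100% in KO, with overlapping groups. The third was 200 bp between Gdf3 and Dppa3. Together they made up 0.874% of the locus bases with an H3K4me1 call in any library, against 1.55% over the genome. Of the locus bases with an H3K4me1 call in any library, 77.4% had one in all 6.

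Raw H3K4me1 ChIP reads per kb of called sequence at Nanog were 91.3, 92.9 and 93.3 in WT and 88.6, 89.6 and 83.2 in KO. At Slc2a3 they ranged from 97.1 to 99.3 in WT and from 89.3 to 92.1 in KO. The groups were apart at both genes, with a log2 difference of −0.09 and −0.12. Input reads per kb of the same calls differed by −0.04 at Nanog and −0.05 at Slc2a3, where the groups were apart, from 1 input per genotype, and the part of this was not tested. In the sequence between Dppa3 and Nanog the density was 102 ± 2.59 in WT and 93.2 ± 5.46 in KO (SD, n = 3 each), also with no overlap, and Apobec1, Gdf3 and Dppa3 overlapped. Over the genome the density ranged from 73.0 to 74.0 in all 6 libraries.

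In counts, H3K4me1 coverage had no window with KO above (11.7% of 17552 gene windows with a call) and 1 with KO below, Nanog (15.4%). For reads per kb of called sequence, no member had KO above (10.6% of gene windows) and 2, Nanog and Slc2a3, had KO below (18.8%).

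H3K27ac changed little in extent. Calls covered 95.3% of the Nanog window in each of 5 libraries and 94.2% in KO replicate 3, and 84.2%, 80.7% and 83.8% of the locus in WT against 84.4%, 83.6% and 83.6% in KO. Of the locus bases with an H3K27ac call in any library, 82.0% had one in all 6. The only stretch restricted to a genotype was 400 bp between Dppa3 and Nanog, called in WT (chr6:122643201-122643600), or 0.188% of the locus bases with a call in any library, against 1.45% over the genome.

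The density of H3K27ac reads at Nanog was the highest of the 5 genes, at 152, 160 and 173 reads per kb of called sequence in WT and 202, 170 and 142 in KO. KO replicate 1 was the highest and KO replicate 3 the lowest of the 6 libraries, so the groups overlapped. This order also held over the genome, where KO replicate 1 had 68.1 and KO replicate 3 had 58.3 reads per kb. At Dppa3 the density was 67.5, 80.0 and 83.6 in WT and 70.8, 64.1 and 57.0 in KO, and the groups overlapped because WT replicate 1 lay below KO replicate 1. At Slc2a3 it was 107 ± 5.02 in WT and 117 ± 9.66 in KO (SD, n = 3 each), with overlap.

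None of the 5 windows had H3K27ac groups apart in coverage, where 21.6% of 16607 gene windows had KO above and 8.20% KO below. The same was true of reads per kb of called sequence, where 9.08% of gene windows had KO above and 6.17% KO below. Per kb of the whole window, H3K27ac reads at Dppa3 were apart, at 58.8 to 59.4 in WT and 45.6 to 52.1 in KO, and overlapped at the other genes. By this measure H3K4me1 was apart at Gdf3, Nanog and Slc2a3, with KO below. H3K27me3 and H3K9me3 were apart at Dppa3, with KO above. The share over all gene windows was not computed for this measure, so nothing is read from it.

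**Figure D3:**
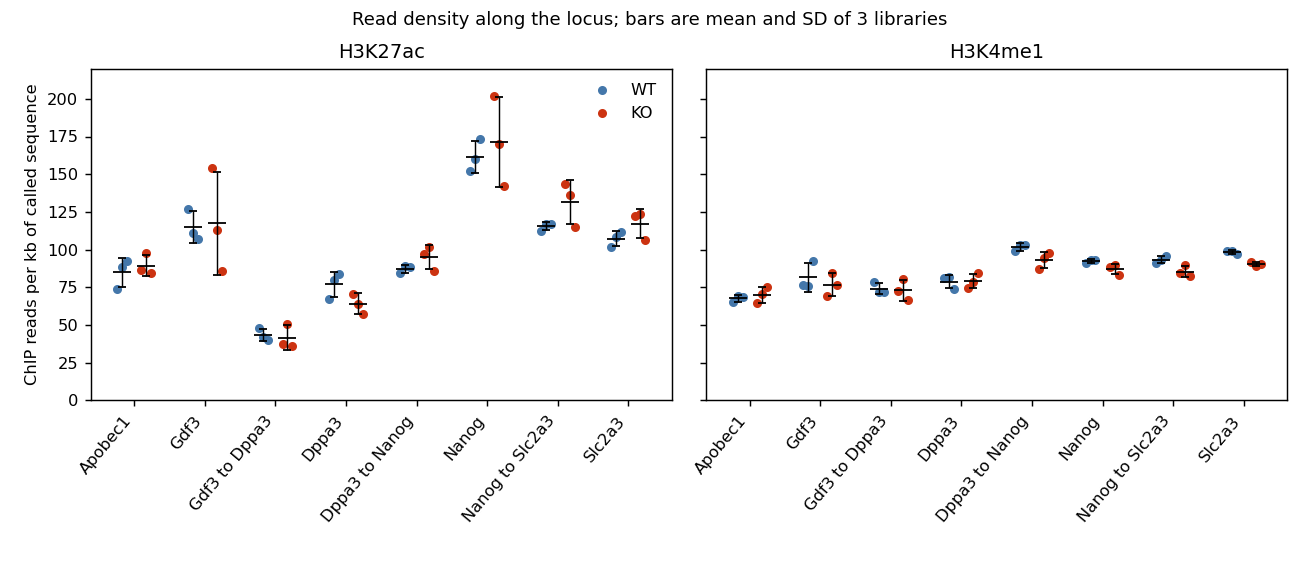
Raw ChIP reads per kb of called sequence (vertical axis) for H3K27ac and H3K4me1 over the genes and the sequence between them, with 1 point per library, blue for WT and red for KO, and bars for the mean and SD (n = 3). For H3K4me1 the KO points lie below the WT points at Nanog and Slc2a3, and for H3K27ac they overlap at every gene.

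Reads over merged regions were compared with an edgeR quasi-likelihood fit across all regions called in all 6 libraries, with the called length as an offset. The call over Dppa3 itself held 680, 657 and 654 H3K27ac reads in WT and 509, 515 and 466 in KO, over 9800, 8000 and 7400 bp and over 7400, 7200 and 7600 bp. The merged region that holds it (chr6:122621201-122637000) had a log2 fold change of −0.28 ± 0.07 (SE), with −0.33 to −0.24 when each library was left out, −0.34 without TMM and −0.35 without the length offset.

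The region from the distal sequence through Nanog (chr6:122658801-122713600) had a log2 fold change of 0.11 ± 0.03 (SE) and the one over Slc2a3 (chr6:122725401-122791200) 0.14 ± 0.02 (SE). Both were smaller without TMM and without the length offset, and close to these values with DESeq2. Most of the region through Nanog lies before the gene. Its change was 0.07 to 0.13 when each library was left out, 0.04 without TMM and −0.02 without the length offset. For the region over Slc2a3 the change was 0.11 to 0.15, 0.07 and 0.03 in the same order.

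These 3 of the 9 H3K27ac regions of the locus passed an adjusted p of 0.05, where 12.8% of 24039 regions did. Since the locus was selected on this contrast, the count is a description and nothing is read from it. Without the length offset, 1 of these 3 passed, that over Dppa3. The region over Dppa3 no longer passed without WT replicate 2 or 3 or KO replicate 2 or 3, and that through Nanog without WT replicate 1, 2 or 3 or KO replicate 1 or 2. Of all H3K27ac regions that passed, 64.2% were higher in KO, and 34.9% without TMM.

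For H3K4me1, the region that holds Nanog (chr6:122701201-122720400) had a log2 fold change of −0.03 ± 0.04 (SE) in reads over called length and −0.21 without the length offset. It passed the threshold without the offset and not with it. Over most of the Slc2a3 body (chr6:122742601-122791200) the change was −0.11 ± 0.03 (SE), with −0.13 to −0.09 when each library was left out and −0.07 without the length offset. At the upstream end of the distal sequence before Nanog (chr6:122658601-122679800) it was −0.13 ± 0.04 (SE), and −0.05 without the length offset. Of the 11 regions, that over the Slc2a3 body passed the same threshold, which 5.64% of 44625 regions did, and again nothing is read from this. It did not pass without the length offset, nor without WT replicate 1 or 2 or KO replicate 2 or 3. Of all H3K4me1 regions that passed, 70.9% were higher in KO, and 52.6% without TMM.

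H3K27me3 was found in the Dppa3 window at 18.7%, 14.4% and 51.9% in WT and 59.1%, 53.3% and 62.0% in KO. The means were 28.3 ± 20.5% and 58.1 ± 4.41% (SD, n = 3 each). The groups did not overlap, though WT replicate 3 (51.9%) lay close to KO replicate 2 (53.3%). The call over the Dppa3 start itself was present in WT replicate 3 and in all 3 KO libraries, and WT replicates 1 and 2 held a call upstream of the gene only.

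In the 6322 bp between the Gdf3 and Dppa3 windows, H3K27me3 covered 0.1%, 0% and 3.3% in WT and 44.4%, 28.6% and 22.3% in KO. A call began at 122618601 in every KO library and in no WT library, and in KO replicates 2 and 3 a separate call nearer to Dppa3 added to the share. The bases called in all 3 KO and in no WT library were 3 stretches of 1200 bp, or 6.52% of the locus bases with H3K27me3 in any library, against 2.04% over the genome. The longest of them (chr6:122618601-122619400, 800 bp) lies at −7809 to −7010 from the Dppa3 start, and RefSeq soft-masks 235 of its central 300 bases as repeats. The H3K27me3 calls there were small, with 47 ChIP reads in KO replicate 2 and 56 in KO replicate 3 over the separate calls.

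Nanog and Gdf3 had no H3K27me3 call in any of the 6 libraries, and neither had the sequence between Dppa3 and Nanog. The Slc2a3 window had calls of 4.1% and 3.3% in KO replicates 2 and 3, over its upstream start, and none in the other 4 libraries. At Apobec1 calls covered 3.49% to 5.80% in WT and likewise 3.49% to 5.80% in KO, at the edge of the window and beyond the gene.

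Of the 5 windows, 1 had H3K27me3 with KO above, Dppa3, where 10.9% of 13437 gene windows with a call had so, and none had KO below, against 7.61%. The merged region over Dppa3 (chr6:122618601-122630800) had a log2 fold change of 0.25 ± 0.11 (SE) in reads over called length, and 1.496 without the length offset. It was 0.12 without WT replicate 3 and up to 0.30 without another library. Of the settings tried, it passed the threshold only without the length offset, and with it 2.73% of 18809 regions passed. H3K27me3 calls covered 214, 259 and 259 Mb of the genome in WT and 278, 277 and 267 Mb in KO, and the part of this in the values at Dppa3 was not tested. Input reads per kb of called sequence differed by a log2 KO/WT of 0.15 in the locus and 0.20 over all calls, from 1 input per genotype.

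H3K9me3 lay over the Dppa3 start in all 6 libraries, the only gene of the 5 where it did. Calls covered 21.6%, 20.2% and 21.6% of the Dppa3 window in WT and 15.9%, 23.1% and 34.6% in KO. The call over the start held 116, 96 and 84 ChIP reads in WT and 131, 134 and 159 in KO. The read counts were apart and the covered shares overlapped. Reads per kb of called sequence also overlapped, at 38.7, 34.3 and 28.0 in WT and 59.5, 41.9 and 33.1 in KO. The share over all gene windows was not computed for raw read counts. The merged region (chr6:122624801-122629600) had a log2 fold change of 0.40 ± 0.18 (SE), with 0.29 to 0.55 when each library was left out and 0.63 without the length offset. It did not pass the threshold, which 0.435% of 27342 regions passed. The input of the H3K9me3 experiment was raised in KO by a log2 of 0.17 over the calls of the Dppa3 window. It was raised by 0.27 in the locus and 0.09 over all calls, and its part in these values was not tested.

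Between Dppa3 and Nanog, H3K9me3 covered 13.39%, 11.6% and 13.98% in WT and 4.46%, 11.6% and 7.44% in KO, with the highest KO library level with the lowest WT one. Part of this was a region called in all 6 libraries (chr6:122639001-122647200), with a log2 fold change of −0.36 ± 0.17 (SE) in reads over called length, which did not pass the threshold. It was −0.43 to −0.20 when each library was left out, the smallest without KO replicate 3 and −0.23 without WT replicate 2, and −0.77 without the length offset, where it passed. Over the other genes H3K9me3 was found in some libraries and not in others. At Nanog it covered 15.2%, 0% and 10.5% in WT and 18.7%, 0% and 0% in KO, and each of the Apobec1, Gdf3 and Slc2a3 windows had libraries at 0% in both genotypes. In all 6 libraries, 11.1% of the called locus bases were shared, and no base was restricted to a genotype. None of the 5 windows had H3K9me3 with KO above or below, where 4.76% and 11.4% of 12110 gene windows with a call did. The Dppa3 start carried H3K27ac, H3K4me1 and H3K9me3 calls in all 6 libraries of each mark. H3K27me3 calls reached it in 4 of 6, and all these calls came from separate ChIPs of bulk cells.

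**Figure D4:**
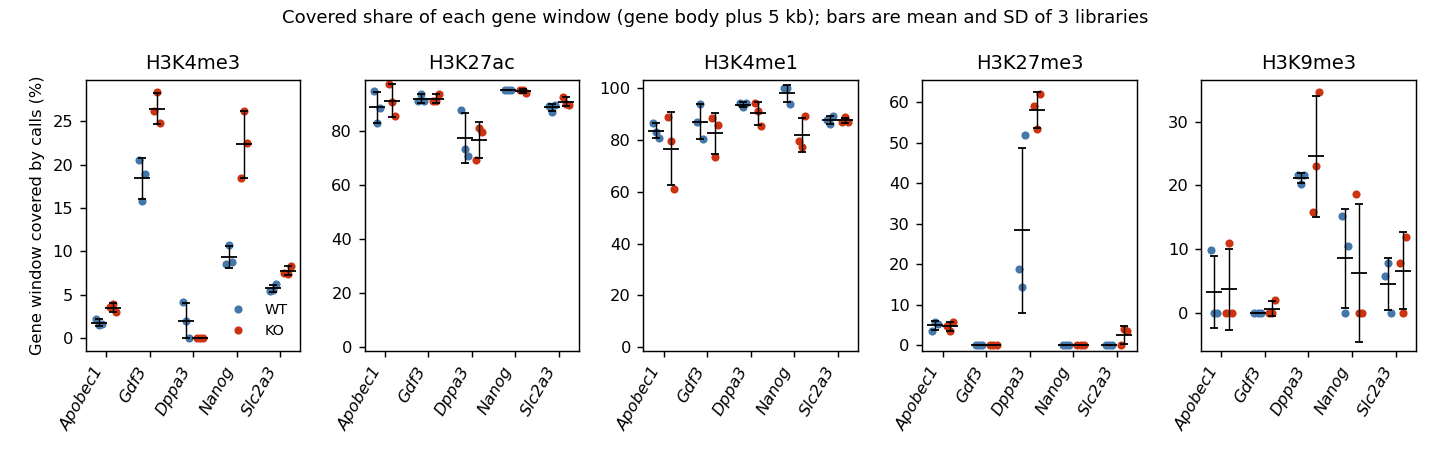
Share of each gene window under calls (vertical axis, percent) for the 5 genes, with 1 panel per histone modification, points for libraries, blue for WT and red for KO, and bars for the mean and SD (n = 3). H3K4me3 is higher in KO in every window except that of Dppa3, and the Apobec1 window holds only peaks shared with the Gdf3 window. H3K27me3 is higher in KO at Dppa3, and H3K4me1 is lower in KO at Nanog.

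Other genes of pluripotency were set beside the locus as a list of 24 genes chosen with earlier results of these data known. For H3K4me3, 19 of the 24 had all KO above all WT and none below, where 24.5% and 7.25% of gene windows did, with a median KO minus WT of 4.65 percentage points, against 2.03 for the 5 members and 0.225 for all gene windows. The leading genes were Zfp42 (Rex1, a naive marker), from 27.8 ± 2.95% to 48.2 ± 5.06%, and Sall4, a zinc finger factor, from 17.7 ± 1.53% to 32.6 ± 3.12% (SD, n = 3 each). Both lie where KO input reads were raised, by a log2 of 0.42 at Zfp42 and 0.45 at Sall4 in the H3K27ac experiment, taken over 2 Mb on either side, and the part of this was not tested. The locus on chromosome 6 had −0.07 in the same inputs.

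For H3K27ac the list had 6 genes above and 1 below, where 21.6% and 8.20% of gene windows with a call did. Klf4, a Krüppel-like factor, went from 68.7 ± 13.4% to 89.6 ± 0.754% and Nr0b1, a nuclear receptor of naive cells, from 31.1 ± 5.77% to 51.4 ± 11.6% (SD, n = 3 each), while Tcl1 was lower at 56.5 ± 14.4% against 87.2 ± 8.73%. For H3K4me1, where 11.7% of gene windows were above and 15.4% below, there were 2 above, Tet2 (69.4 to 86.8%) and Nr5a2 (85.9 to 89.4%), and 7 below, among them Tcl1 (96.3 to 72.2%) and Utf1 (91.2 to 82.9%). Tcl1 lies where KO input reads were lowered, by −0.95 for H3K27ac and −0.96 for H3K4me1. Tet2 encodes an enzyme that oxidises methylated cytosine, Nr5a2 a nuclear receptor and Utf1 a chromatin factor of ES cells.

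For H3K27me3, 9 of the 24 had a call, none was above (10.9% of gene windows with a call) and 2 were below (7.61%), Klf4 (44.2 to 12.9%) and the T-box factor gene Tbx3 (95.8 to 73.7%). For H3K9me3, 3 were above and none below, against 4.76% and 11.4% of gene windows with a call, led by Zfp42 (0 to 41.4%, input log2 0.51) and Tet2 (8.53 to 18.7%).

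The genes most like Nanog in coverage by the 5 marks over all 30 libraries were Twf2, Tdh and Tfap4, at a distance of 29.8, 31.4 and 31.4 percentage points, where the median gene window was at 247. For Dppa3 they were Eif4e1b, Ttyh3 and Mfap2, at 43.2, 49.2 and 63.2, with a median of 217. Twf2 encodes an actin-binding protein, Tdh threonine dehydrogenase and Eif4e1b a cap-binding protein of the oocyte.

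The libraries held 21836 to 26806 H3K4me3 peaks, and the ChIP reads in calls numbered 22943091 to 28339766 for H3K27ac, 34736939 to 35951506 for H3K4me1, 8910890 to 10938375 for H3K27me3 and 8548342 to 12105343 for H3K9me3. H3K27ac and H3K4me1 carry the same antibody (ab8895) in the labels, the methods give ab4729 for H3K27ac, and both experiments use 1 input pair. Of 6 ES cell promoters, H3K4me3 was called in all 6 libraries at 4 and H3K27ac at 5, while that of Esrrb, taken at the 5′ end of the gene model, had neither and was under H3K27me3 in all 6. The promoters of 4 primitive endoderm, 3 primed epiblast and 4 fibroblast genes were all under H3K27me3 in all 6 libraries, as were those of 3 of 4 trophectoderm genes, and some of these also carried H3K4me3 or H3K27ac. Over the window of Nfkbia, the targeted gene, H3K4me3 covered 9.26%, 8.82% and 11.5% in WT and 1.78%, 6.19% and 9.71% in KO. The groups overlapped, and such calls do not check an edit in an exon.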

How the data were processed

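Processed ChIP-seq call lists of 30 libraries were used, and the 5 genes and all lists were chosen with earlier results of these data known. Per the study's methods and the submitters' processing notes, the authors aligned reads to GRCm38 with Bowtie2 2.4.4, removed reads in ENCODE blacklisted regions and called H3K4me3 peaks with MACS2 2.2.7.1 and the other marks with epic2 (listed as SICER 0.0.52), each library against its input at an FDR under 0.05. H3K9me3 processing is not given in the sources used here beyond its labels. In the deposited H3K4me3 lists each peak has a score, its fold enrichment, and −log10 values of p and q. The deposited epic2 lists give ChIP and input read counts per call, a p-value, an FDR (q-value), a score and a log2 fold change over input, and the counts are not scaled for depth. The read totals of whole libraries were not used here.

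For each window and library, the covered bases and the density of ChIP reads over called bases were computed (a call cut by a window edge gave reads in proportion to its length) and given as mean ± SD. The number of reads in a call sets its precision, and H3K4me3 lists give none. Groups were said not to overlap when every KO value lay above, or every one below, the full range of WT. No adjusted p is printed for members. Counts over regions called in all 6 libraries were fitted with edgeR 4.0.16 (quasi-likelihood, TMM, log of called length as offset, Benjamini-Hochberg adjustment at 0.05) and, as an alternative, DESeq2 1.42.0 in R 4.3.3. Tested on simulated data, the fit recovered 98.5% of changed regions for H3K27me3, 99.5% for H3K9me3 and 100% for H3K27ac and H3K4me1. Recovery of changes as small as those of the locus regions was not tested. The remaining steps ran in Python 3.11.15 (pandas 2.3.3, numpy 2.4.6, matplotlib 3.10.9).

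The genes named were the 5 members, the 2 most changed genes in each direction of the pluripotency list per mark among those without overlap, and the 3 genes nearest to Nanog and to Dppa3 in coverage. The stretches of bases restricted to 1 genotype and the strongest peak near a start, within 2000 bp, were measures chosen after seeing the data. The spread is that between the 3 libraries of a group, which the labels do not tie to clones.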

Additional observations from a re-analysis of the deposited data

How the results depend on the processing

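KO minus WT differences in covered share of the locus kept their direction for H3K4me3, H3K4me1 and H3K27me3 with calls at an FDR or q under 0.01, with the same number of top-ranked calls in each list and with each library left out. With equal numbers of top-ranked calls the H3K27ac difference was 5.33 percentage points against 0.94, and that of H3K9me3 was 1.62 against −0.57. Leaving out 1 library in turn gave −0.15 to 1.57 for H3K27ac, −1.84 to 0.93 for H3K9me3, 2.01 to 2.52 for H3K4me3, 3.05 to 4.20 for H3K27me3 and −4.69 to −1.14 for H3K4me1. At Nanog the H3K4me1 difference was −30.8 over the gene body alone and −9.06 with 10000 bp on either side, and the H3K4me3 difference at Dppa3 was −7.23 over its body. The share of regions called by edgeR was 12.8%, 5.64%, 2.73% and 0.435% for H3K27ac, H3K4me1, H3K27me3 and H3K9me3. Without the length offset it was 24.6% for H3K27ac, 23.2% for H3K4me1, 10.2% for H3K27me3 and 7.40% for H3K9me3, and with regions of like length alone it was 45.8%, 29.0%, 24.9% and 6.56%. DESeq2 called 1.02% of H3K9me3 regions, 279 against 119. Leaving out 1 library gave 3.72 to 4.10% for H3K4me1, 1.41 to 2.64% for H3K27me3 and 0.139 to 0.391% for H3K9me3. The H3K27ac region from the distal sequence through Nanog changed sign without the length offset, to −0.020, and the cause was not tested. Libraries with the same replicate number correlated by −0.018 to 0.027 in their deviations. The labels do not say whether such libraries were prepared together. These deviations, taken within 3 libraries per group, cannot decide it. With the replicate block 11.8% of H3K27ac, 4.76% of H3K4me1, 2.55% of H3K27me3 and 0.329% of H3K9me3 regions were called, and the region through Nanog, at 0.11, was not. Own-numbered libraries correlated best in 0, 3, 2 and 2 of 3 numbers for these marks in the same order. The H3K27me3 and H3K9me3 calls near Dppa3 held 46 to 406 ChIP reads each, and no test related them to depth.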
